A study of Mus musculus with 9 samples.

Results

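The insulin-like growth factor (IGF) axis was followed here through 10 named genes, taken by symbol from a table of raw counts that lists 53465 Ensembl genes. They are the ligand genes Igf1 and Igf2, the receptor genes Igf1r and Igf2r, and the binding protein genes Igfbp2, Igfbp3, Igfbp4, Igfbp5, Igfbp6 and Igfbp7. RNA came from mouse adult fibroblasts in 9 libraries: 3 labelled as controls, 3 from cells given DPI for 24 h and 3 from cells given DPI for 72 h. The labels abbreviate the agent, and DPI is read here as diphenyleneiodonium, which blocks flavin-dependent enzymes. The labels give no genotype, strain, sex, age or dose, do not say whether controls received a vehicle, and do not say when controls were collected, so DPI and time in culture cannot be told apart. Whether replicates are separate cultures is not stated, so each p-value sets a difference against a spread between libraries that could be technical.

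IGF1 and IGF2 are secreted growth factors that act through the IGF1 receptor, a tyrosine kinase at the cell surface that recruits insulin receptor substrates and phosphoinositide 3-kinase. The IGF2 receptor is also the cation-independent mannose 6-phosphate receptor: it takes IGF2 into lysosomes and sorts lysosomal enzymes. Binding proteins are secreted too and hold the ligands outside the cell. Proteases such as pappalysin-1 can cut some of them and release the ligand, and connective tissue cells are a known source of both.

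Total counts per library ranged from 15292736 to 17923656. Of the fibroblast markers listed, Col1a1, Col1a2 and Vim were abundant, with group means of at least 1644 CPM (the usual counts-per-library-size unit, with library sizes scaled by TMM), whereas Thy1 had a mean of 0 CPM in the control and 24 h groups and Lum stayed under 0.04 CPM in every group mean. The markers Krt5, Adgre1, Adipoq, Cidec, Myog, Myh3 and Sox10 of other cell types had no count in any library. Control replicate 2 lay away from controls 1 and 3, with a score of 28.2 on the second principal component against 10.6 and 12.7. Summed over the marker list, fibroblast genes reached 5237 to 5420 CPM in controls, 9244 to 9667 CPM at 24 h and 8489 to 9977 CPM at 72 h. Col1a1, Col1a2 and Vim carried most of these sums (means of 1705, 1919 and 1644 CPM in controls). Of the 8 markers tested, 7 rose at 24 h (edgeR adjusted p under 0.05), where 12.4% of all genes tested were called higher. At 72 h only those 3 rose and 5 did not pass, where 4.73% of all genes tested were called higher. In bulk RNA, fewer cells of a type and less RNA per cell cannot be told apart.

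Of the 10 genes, 7 had enough counts to be tested and 3 did not. Igf2, on chromosome 7 from 142650766 to 142666816 (GRCm38, as are all coordinates here), had 0 to 3 counts per library. Igfbp5 had 1 to 5 counts per library, and its neighbour Igfbp2 had 0 in all 9. A count of 0 allows up to 3 counts, or 0.167 to 0.196 CPM at these depths, for counting error only. Igfbp2 and Igfbp5 lie tail to tail on chromosome 1 with 5457 bases between them. Igfbp1 and Igfbp3 form a like pair on chromosome 11 with a gap of 3539 bases, and there the pair was split: Igfbp1 had 0 counts in all 9 libraries and Igfbp3 had 172 to 715. H19, the untranslated RNA imprinted opposite to Igf2, had a mean of 0.13 CPM in controls. The fibroblasts thus held transcripts of both receptor genes and of 4 of the 6 binding protein genes, little Igf1 and next to no Igf2.

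Compared per length, as CPM per kilobase of exon, the order in controls was Igfbp4 (29.5), Igfbp6 (20.5), Igf2r (19.2), Igfbp7 (14.6), Igf1r (4.18), Igfbp3 (3.79) and Igf1 (0.263). The ranges of Igfbp6 and Igf2r overlapped between libraries, as did those of Igf2r and Igfbp7 and those of Igf1r and Igfbp3. At 24 h Igf2r (25.4) and Igfbp6 (23.0) came first with overlapping ranges, and Igfbp3 (11.5) stood above Igf1r (5.51) with no overlap. At 72 h Igfbp6 (31.9) and Igfbp4 (27.4) came first, again overlapping, and Igfbp7 (5.56) overlapped Igf1r (5.39).

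The 24 h comparison asked which of these genes differed after the shorter exposure. At 24 h Igfbp3, Igf1 and Igf1r rose and Igfbp4 fell, with Igfbp3 at about 3.03 times its control level. That is 3 members higher and 1 lower among 7 tested, where 12.4% of all 14088 genes tested were called higher and 12.3% lower, 24.7% in all (edgeR adjusted p under 0.05). The 24 h and control libraries did not overlap for 5 of the 7 members, as for 40.5% of all genes tested. The median log2 fold change of the 7 was 0.40, against -0.0056 over all genes tested. At 72 h Igfbp6 and Igf1r were higher than in controls and Igfbp7 was lower, where 4.73% of all genes were called higher and 3.83% lower, 8.56% in all. The median of the 7 was -0.02, and 3 of them did not overlap with controls, as for 27.1% of all genes. Between the exposures, Igfbp4 and Igfbp6 were higher at 72 h than at 24 h and Igfbp3, Igf1 and Igfbp7 lower, where 10.1% and 11.2% of all genes were called in those directions, 21.3% in all. Here 6 of the 7 did not overlap, as for 46.2% of all genes. The summed CPM of 5 chondrocyte markers was 45.6 to 47.9 in controls, 124 to 127 at 24 h and 71.0 to 81.0 at 72 h. Acan and Sox9, the only ones tested, carried most of these sums. Col2a1 went the other way at 24 h, with means of 0.263, 0.0784 and 0.0611 CPM in the same order. Comp and Matn3 had at most 0.582 CPM in any group mean. The part of these markers in the results was not tested.

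**Figure D1:**
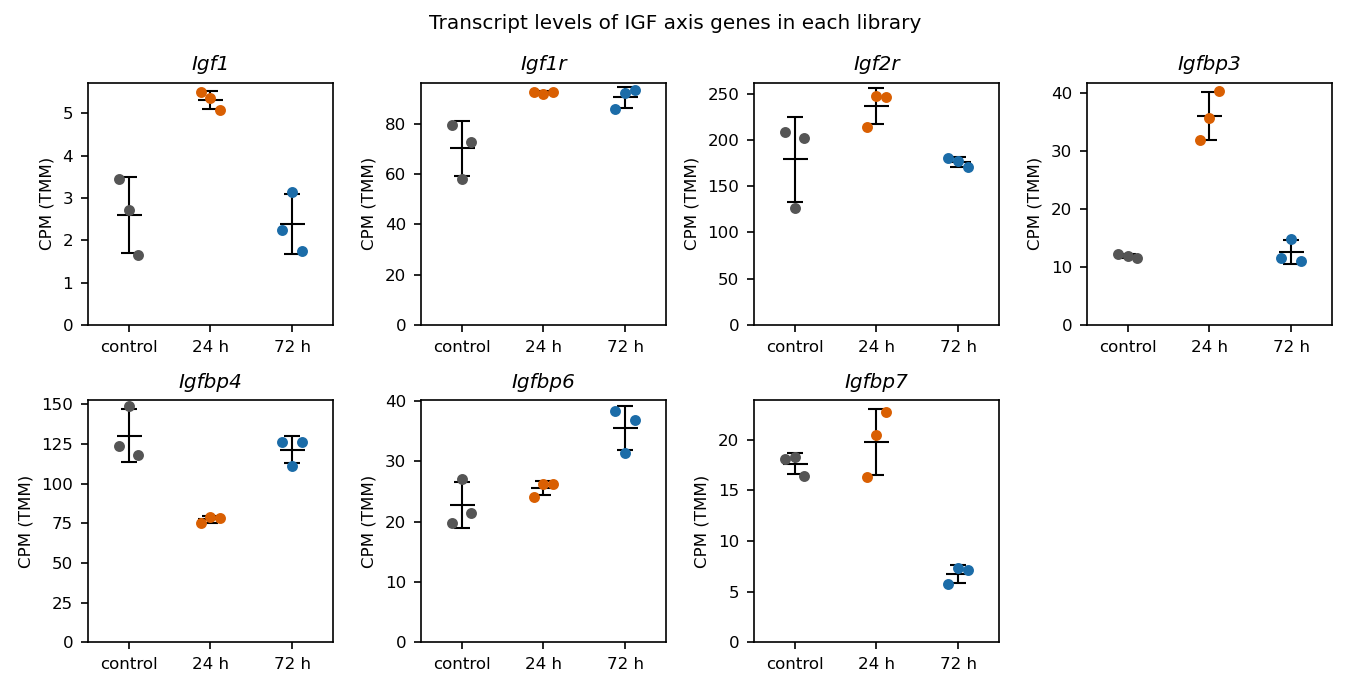
Each panel plots the CPM (scaled by TMM, vertical axis from 0) of 1 gene in the 3 control, 3 DPI 24 h and 3 DPI 72 h libraries as points, with the group mean and SD as a bar with whiskers. The 24 h points of Igfbp3 lie at 31.9 to 40.3 CPM, above every other library, and the 72 h points of Igfbp7 lie at 5.71 to 7.35 CPM, below every other library.

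Igf1, which encodes the main ligand detected, lies on chromosome 10 from 87858265 to 87937042. It had 3.44, 2.70 and 1.66 CPM in control replicates 1 to 3, 5.51, 5.36 and 5.07 CPM at 24 h, and 2.25, 3.15 and 1.74 CPM at 72 h. All 24 h libraries were above all others, while the control and 72 h libraries overlapped. The log2 change was 1.03 ± 0.29 at 24 h (SE, adjusted p = 0.0241) and -0.13 ± 0.30 at 72 h (adjusted p = 0.853), and 72 h differed from 24 h by -1.15 (adjusted p = 0.0163). These values rest on 26 to 90 counts per library. The 24 h call was lost without control replicate 3 (0.78, adjusted p = 0.0697) and without each of DPI 24 h replicates 1, 2 and 3 (adjusted p = 0.0719, 0.0694 and 0.0627). The call between the exposures was lost when DPI 24 h replicate 1 or 2, or DPI 72 h replicate 1 or 3, was left out (adjusted p = 0.0538, 0.052, 0.0584 and 0.0674).

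Igf1r, the gene of the signalling receptor, lies on chromosome 7 from 67952827 to 68233668. It had 79.7, 58.0 and 72.9 CPM in the controls, 92.6, 92.0 and 92.9 CPM at 24 h, and 85.8, 92.1 and 93.6 CPM at 72 h. Every treated library was above every control, and control replicate 2 was the lowest of all. The log2 changes were 0.40 ± 0.10 at 24 h (SE, adjusted p = 0.0138) and 0.37 ± 0.10 at 72 h (adjusted p = 0.0447), and the exposures differed by -0.03, with a 95% interval from -0.25 to 0.19. The 24 h call was lost without DPI 24 h replicate 3 (adjusted p = 0.0506). The 72 h call was lost in 11 of 20 alternatives, among them the replicate block (adjusted p = 0.0696) and the omission of control replicate 3 or of any single DPI library (adjusted p from 0.0763 to 0.145).

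Igf2r, the gene of the receptor that clears IGF2, lies on chromosome 17 from 12682406 to 12769664. It had 209, 126 and 202 CPM in the controls, 214, 248 and 247 CPM at 24 h, and 180, 178 and 170 CPM at 72 h. The 24 h libraries were above all others, and control replicate 2 was far below the other controls. The log2 change of 0.40 ± 0.15 at 24 h did not pass by edgeR (SE, adjusted p = 0.0809), nor did that of -0.02 at 72 h (adjusted p = 0.957) or the difference of -0.42 between the exposures (adjusted p = 0.075). Without control replicate 2 all 3 passed, at 0.20 (adjusted p = 0.0269), -0.22 (adjusted p = 0.0367) and -0.42 (adjusted p = 0.000105). The 24 h value also passed without control replicate 1 (0.52, adjusted p = 0.0377), with DESeq2 (0.40, adjusted p = 0.0296) and when low counts were not filtered out (adjusted p = 6.93e-05). The difference between the exposures, at -0.42 each time, passed with DESeq2 (adjusted p = 0.0248), with no filter (3.43e-05) and with only the 6 libraries compared (0.000195). The Igf2r calls thus depended on the tool, the filter and the libraries used. Airn, the antisense RNA inside Igf2r, shares no exonic base with it and had 38 to 92 counts per library.

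**Figure D2:**
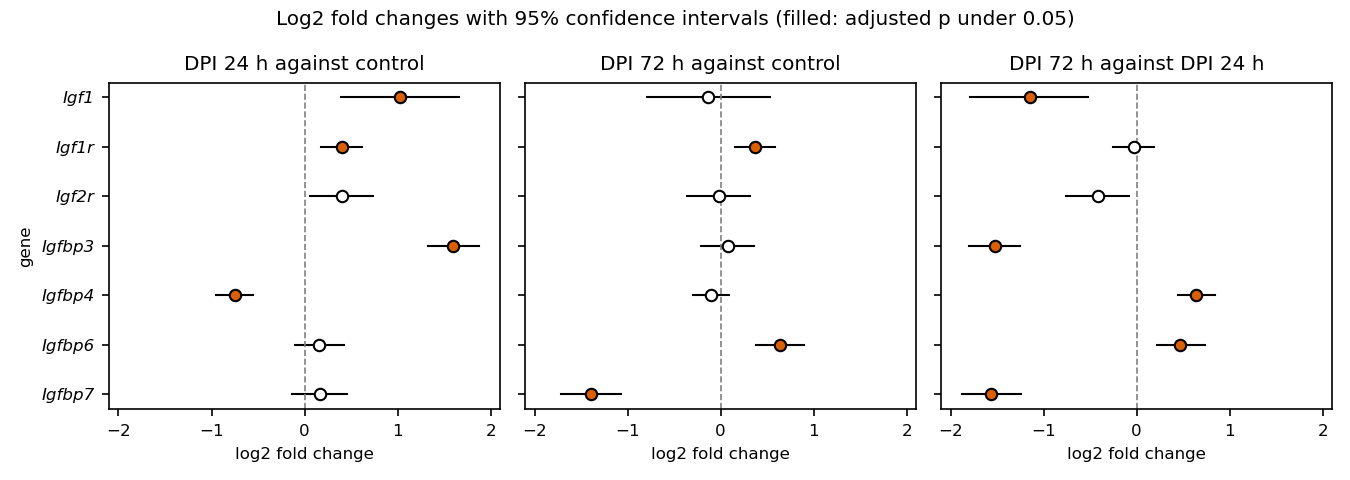
Points give the log2 fold change of each tested gene (rows) in the 3 comparisons (panels), lines its 95% confidence interval, and filled points an edgeR adjusted p under 0.05. Igfbp3 and Igfbp4 leave 0 at 24 h in opposite directions and lie near 0 at 72 h, whereas Igfbp6 and Igfbp7 lie near 0 at 24 h and leave it at 72 h.

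The 4 binding protein genes that were tested moved at different times, and 3 of their promoters are shown because they start at about the place where both annotations put them. The sequences are the 150 bases upstream of the RefSeq start (GRCm38.p6), 5′ to 3′ on the gene's strand, with motif matches in capitals.
Igfbp3, chr11:7213924-7214073, minus strand: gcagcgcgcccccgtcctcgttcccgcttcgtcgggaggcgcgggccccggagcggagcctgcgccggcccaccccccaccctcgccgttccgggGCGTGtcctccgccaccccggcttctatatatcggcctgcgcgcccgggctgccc
Igfbp4, chr11:99041094-99041243, plus strand: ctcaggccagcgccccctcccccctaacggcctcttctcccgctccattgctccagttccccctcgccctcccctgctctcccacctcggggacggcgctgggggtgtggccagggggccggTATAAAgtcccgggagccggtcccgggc
Igfbp7, chr5:77408046-77408195, minus strand: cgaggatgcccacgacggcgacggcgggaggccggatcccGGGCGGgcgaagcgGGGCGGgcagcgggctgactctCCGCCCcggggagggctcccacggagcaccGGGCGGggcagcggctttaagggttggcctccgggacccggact
Motifs were searched on both strands as GGGCGG (the GC box, held by 28.6% of 32851 windows of this length), TATAAA (the TATA box, 7.57%), ACGTG or GCGTG (the hypoxia response core, 28.6%) and TGATGNAA (the amino acid response core, 2.23%). Igfbp7 held 4 GC boxes, Igfbp4 a TATA box that starts 28 bases before the gene's start, and Igfbp3 a single hypoxia response core. GC content was 78.7% for Igfbp3, 73.3% for Igfbp4 and 78.0% for Igfbp7, against a median of 54.0% over all windows. These are matches of letters only.

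Igfbp3, which encodes the main carrier of IGFs in serum, changed most at 24 h. It lies on chromosome 11 from 7206086 to 7213923. Its level was 12.2, 11.9 and 11.5 CPM in the controls, 31.9, 35.8 and 40.3 CPM at 24 h, and 11.6, 14.9 and 11.1 CPM at 72 h. No 24 h library came near the others, and the control and 72 h ranges overlapped. The log2 change was 1.60 ± 0.12 at 24 h (SE, adjusted p = 7.7e-06) and 0.08 ± 0.13 at 72 h (adjusted p = 0.787), and 72 h differed from 24 h by -1.52 ± 0.12 (adjusted p = 1.06e-05). The 24 h change ranked 280 by size among the 14088 genes tested.

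Igfbp4 encodes a binding protein that blocks IGF action until it is cut by pappalysin-1, and it went the other way. It lies on chromosome 11 from 99041244 to 99054392. It had 124, 149 and 118 CPM in the controls, 75.1, 79.0 and 78.4 CPM at 24 h, and 126, 111 and 126 CPM at 72 h. The 24 h libraries were below all others, and the control and 72 h ranges overlapped. The log2 change was -0.75 ± 0.09 at 24 h (SE, adjusted p = 0.000184) and -0.10 ± 0.09 at 72 h (adjusted p = 0.557), and 72 h was above 24 h by 0.64 ± 0.09 (adjusted p = 0.000526). Control replicate 2 held the highest level, and without it the 24 h change was -0.64.

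Igfbp6, whose product prefers IGF2, passed against control after the longer exposure and not after the shorter one. It lies on chromosome 15 from 102144362 to 102149511. It had 19.8, 27.1 and 21.5 CPM in the controls, 24.2, 26.3 and 26.2 CPM at 24 h, and 38.3, 31.4 and 36.8 CPM at 72 h. The 72 h libraries were above all others, and the control and 24 h ranges overlapped. The log2 change was 0.16 ± 0.12 at 24 h (SE, adjusted p = 0.365) and 0.64 ± 0.12 at 72 h (adjusted p = 0.00628), and 72 h was above 24 h by 0.47 (adjusted p = 0.0152). Without control replicate 2, the highest control, Igfbp6 passed at 24 h too (0.31, adjusted p = 0.0311). The call between the exposures was lost without DPI 24 h replicate 1, DPI 72 h replicate 1 or DPI 72 h replicate 3 (adjusted p = 0.0655, 0.0656 and 0.0595).

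Igfbp7 encodes a matrix-associated relative that binds IGFs weakly, and it fell at 72 h. It lies on chromosome 5 from 77349240 to 77408041. It had 18.1, 18.3 and 16.4 CPM in the controls, 16.3, 20.4 and 22.7 CPM at 24 h, and 5.71, 7.35 and 7.10 CPM at 72 h. The 72 h libraries were far below all others, at a fitted 0.381 of control. The log2 change was 0.17 ± 0.13 at 24 h (SE, adjusted p = 0.407) and -1.39 ± 0.14 at 72 h (adjusted p = 0.000145), and 72 h differed from 24 h by -1.56 ± 0.14 (adjusted p = 2.73e-05). Igfbp7 shares 85 exonic bases with Polr2b on the other strand, which had 2498 to 3529 counts per library, and the strand setting of the counting is not given in the sources used here. The summed CPM of 5 smooth muscle or myofibroblast markers, none at 0 in all libraries, was 26.1 to 33.1 in controls, 15.7 to 19.4 at 24 h and 7.78 to 9.53 at 72 h. Of the 3 tested, 2 fell at 72 h, and their part in the result was not tested.

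The binding protein transcripts differed in make-up between groups while their sums per length lay close together. Per length, the 6 genes summed to 68.4 ± 7.55 CPM per kilobase in controls, 68.4 ± 5.40 at 24 h and 68.9 ± 4.02 at 72 h (SD, n = 3), a description with no test. Igfbp4 took 43.1% ± 0.834 of that sum in controls, 25.7% ± 1.45 at 24 h and 39.8% ± 0.515 at 72 h. Igfbp3 took 5.59% ± 0.593, 16.8% ± 0.762 and 5.86% ± 1.34 in the same order. Igfbp6 took 29.9% ± 2.11, 33.6% ± 1.28 and 46.2% ± 2.17. Igfbp7 took 21.4% ± 1.72, 23.8% ± 2.1 and 8.11% ± 1.43. Shares of a sum must offset each other, so levels per length are given too. From controls to 24 h, Igfbp3 went from 3.79 to 11.5 and Igfbp4 from 29.5 to 17.6 CPM per kilobase. From controls to 72 h, Igfbp6 went from 20.5 to 31.9 and Igfbp7 from 14.6 to 5.56. The sums depend on the exon lengths used.

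**Figure D3:**
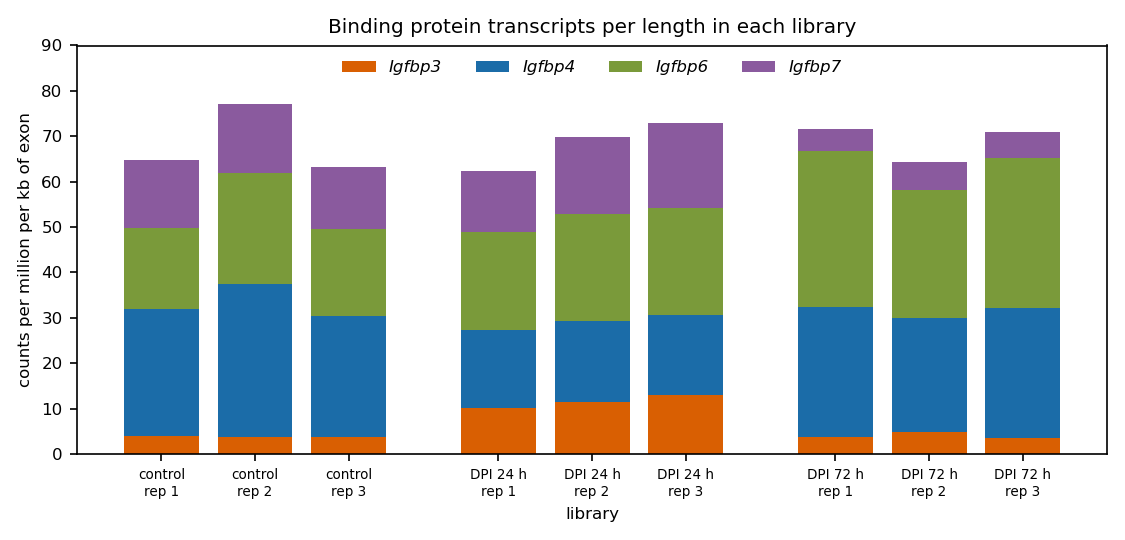
Stacked bars give the level per length (CPM per kilobase of exon, axis from 0) of Igfbp3, Igfbp4, Igfbp6 and Igfbp7 in each of the 9 libraries; Igfbp2 and Igfbp5 are too low to draw. The bars reach like heights, between 62.5 and 77.0, with a wider Igfbp3 band at 24 h and a narrower Igfbp7 band at 72 h.

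The genes around these members were taken from lists of the pathway. Among 8 further carriers and regulators of binding protein cleavage, 5 were tested. At 24 h Pappa and Pappa2 rose and Stc2 fell, where 24.7% of all genes were called. At 72 h against control 0 of the 5 passed by edgeR, which is near the 8.56% of all genes called. There 1 was higher and 1 lower at an unadjusted p under 0.05, and 0 passed by DESeq2 and limma voom. Pappa encodes pappalysin-1, the protease that cuts IGFBP4. It had 6.33, 3.42 and 4.09 CPM in the controls, 9.73, 8.77 and 7.72 CPM at 24 h, and 4.62, 4.02 and 3.94 CPM at 72 h, so all 24 h libraries were highest. Its log2 change at 24 h was 0.92 ± 0.22 (SE, adjusted p = 0.0113), and 72 h differed from 24 h by -1.06 (adjusted p = 0.00636). Stc2 encodes stanniocalcin-2, an inhibitor of that protease. It had 14, 12 and 16 counts in the controls, 1, 2 and 4 at 24 h, and 12, 18 and 8 at 72 h. The 24 h counts summed to 7 against 42, a ratio of 0.163 with a 95% exact interval of 0.0617 to 0.366 for counting error only (edgeR log2 change -2.54 ± 0.58 SE, adjusted p = 0.0088). Stc2 was higher at 72 h than at 24 h by 2.45 (adjusted p = 0.0127), a call lost when DPI 24 h replicate 1 or 2, or DPI 72 h replicate 2, was left out (adjusted p = 0.0565, 0.0531 and 0.0588). Pappa2, a related protease, had 1 to 5 counts in controls and 11 to 13 at 24 h (log2 change 1.96, adjusted p = 0.0219). Its call was lost in 8 of 18 alternatives, among them the replicate block (adjusted p = 0.0511) and the omission of control replicate 1 or 3 (adjusted p = 0.0628 and 0.078) or of any DPI 24 h replicate (0.0591 to 0.0695). In these fibroblasts Igfbp4 was thus lower, Pappa higher and Stc2, at 1 to 4 counts, lower in the same 24 h libraries. Igfbp3 was higher there (log2 change 1.60). These are transcripts, and cleavage of binding proteins was not tested. The other tested genes of the list, Stc1 and Htra1, did not pass at 24 h (log2 changes 0.58 and -0.16, edgeR adjusted p = 0.246 and 0.161). Stc1 had group means of 1.79 CPM in controls and 2.69 CPM at 24 h, above those of Stc2 (0.843 and 0.136 CPM).

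**Figure D4:**
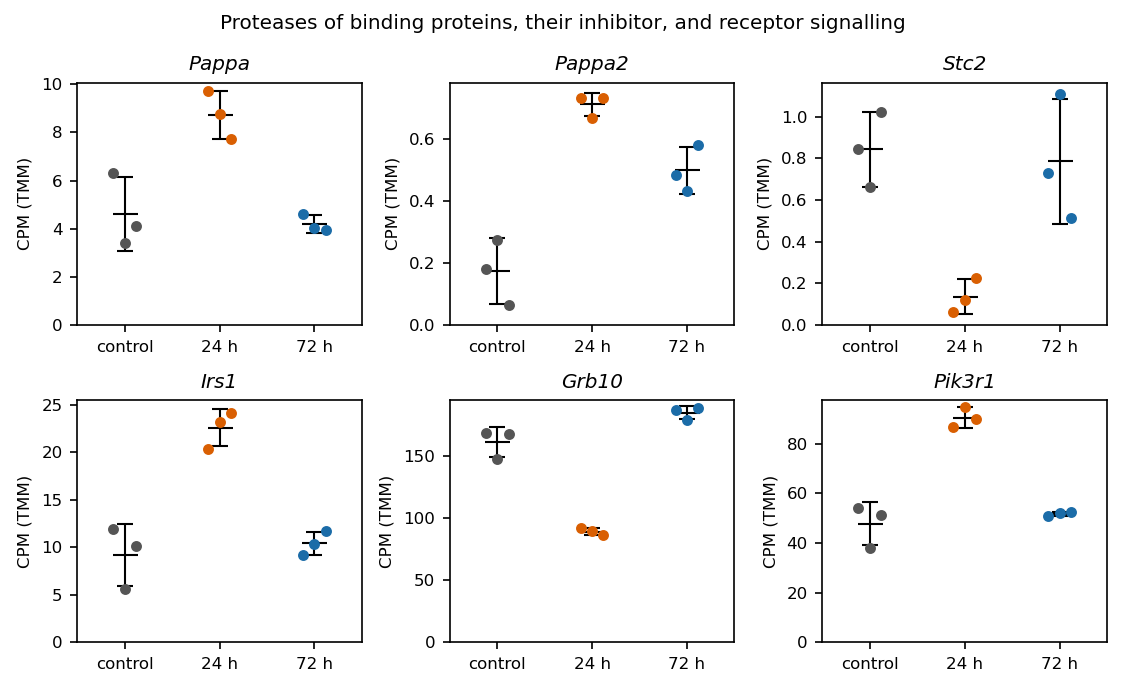
Each panel plots the CPM of 1 gene (vertical axis from 0) in the control, 24 h and 72 h libraries as points, with mean and SD. Pappa, Pappa2, Irs1 and Pik3r1 are highest and Stc2 and Grb10 lowest in the 24 h libraries.

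Among genes of insulin and IGF receptor signalling, 34 were tested. At 24 h 11 rose and 3 fell, where 12.4% of all genes were called higher and 12.3% lower, and the median log2 change was 0.13. At 72 h 1 rose and 1 fell, a share no larger than the 8.56% of all genes called, and the median was 0.06. Without control replicate 2 the 72 h counts were 4 and 3, and the number that fell at 24 h was 5. Over all genes that omission gave 1100 higher and 865 lower at 72 h, against 666 and 540. At 24 h it gave 2122 lower, against 1728. Grb10, an adaptor that restrains both receptors, went from 162 CPM in controls to 89.4 CPM at 24 h and 185 CPM at 72 h. Its log2 change at 24 h was -0.85 ± 0.07 (SE, adjusted p = 8.84e-06). Pik3r1 and Pik3cb, a regulatory and a catalytic subunit gene of phosphoinositide 3-kinase, rose by 0.92 and 0.57 on the log2 scale at 24 h (adjusted p = 0.000174 and 0.000148). The receptor substrate genes Irs1 and Irs2, named after their values were seen, rose by 1.30 and 0.42 (adjusted p = 0.00158 and 0.0147), the latter lost without DPI 24 h replicate 2 or 3 (adjusted p = 0.0518 and 0.0561). Irs1 had 11.9, 5.57 and 10.1 CPM in controls, 20.4, 23.2 and 24.1 CPM at 24 h, and 9.23, 10.4 and 11.7 CPM at 72 h. Between 24 h and 72 h these 5 genes moved back (adjusted p from 2.12e-06 to 0.00888). They had been picked by their p over the 3 groups or after their values were seen, so their passing here is no separate result. Of all 34 genes, 2 rose, 10 fell and 22 did not pass between the exposures, where 21.3% of all genes were called.

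FOXO factors are restrained by IGF signalling, and 11 genes that they activate in other cells were tested. Of these, 1 rose and 2 fell at 24 h and 2 rose and 0 fell at 72 h by edgeR (1 lower at an unadjusted p under 0.05, 0 by DESeq2 and limma voom). The 24 h count is near the 24.7% of all genes called, and at 72 h 8.56% of all genes were called. Txnip, which encodes a brake on glucose uptake, rose by 1.54 at 24 h (adjusted p = 1.83e-07). Pik3ip1, an inhibitor of phosphoinositide 3-kinase, fell by 1.15 on the log2 scale (adjusted p = 0.000778). Bnip3, a mitophagy receptor and also a known hypoxia target, fell by 0.59 at 24 h (adjusted p = 0.000613) and was 1.15 above control at 72 h (adjusted p = 1.28e-05). Without control replicate 2, 3 fell at 24 h and 3 rose at 72 h. Over all genes that omission gave 2122 lower at 24 h, against 1728, and 1100 higher at 72 h, against 666.

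Genes whose proteins carry an IGFBP-like amino-terminal module, chiefly matricellular proteins of the CCN family, were changed in part. Of 8 tested, 3 rose, 1 fell and 4 did not pass at 24 h, where 24.7% of all genes were called, and 3 rose, 2 fell and 3 did not pass at 72 h, where 8.56% were. Esm1, which encodes the proteoglycan endocan, rose by 2.49 and 1.02, Ccn4 by 1.12 and 0.48, and Ccn2, connective tissue growth factor, by 0.70 and 0.59 at 24 h and 72 h (adjusted p from 9.64e-08 to 0.00277). Kazald1 fell by 1.74 on the log2 scale at 24 h (adjusted p = 0.0059). Ccn5 and Ccn3 fell at 72 h by 1.93 and 1.37 on the log2 scale (adjusted p = 5.61e-05 and 0.0124), the latter lost without DPI 72 h replicate 1 or 2 (adjusted p = 0.0535 and 0.0618). Ccn1 did not pass against control (adjusted p = 0.0806 and 0.48) and differed between the exposures by 0.23 (adjusted p = 0.0165), and this was lost without DPI 24 h replicate 1 or 3 or DPI 72 h replicate 1 or 3 (adjusted p from 0.0644 to 0.069).

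Among 9921 other genes with a mean of at least 5 CPM, those whose log2 CPM followed a binding protein most closely over the 9 libraries were named. They are a description, since the 9 libraries fall into 3 groups and share their depth. For Igfbp3 they were Efemp1 (Pearson r = 0.989), Fbxw8 (0.988) and Arl4c (0.986). For Igfbp4 they were Pex6 (0.988), Bcap29 (0.987) and Zfp362 (0.987). For Igfbp7 they were Ccn5 (0.986), Cbx6 (0.981) and Dusp4 (0.980). Their sizes of change differed: Fbxw8 changed by 0.24 at 24 h where Igfbp3 changed by 1.60, and Cbx6 by -0.23 at 72 h where Igfbp7 changed by -1.39. Ccn5, with its IGFBP-like module, went from 9.12 and 11.7 CPM in the control and 24 h groups to 2.39 CPM at 72 h.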

How the data were processed

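RNA-seq of mouse adult fibroblasts used Illumina TrueSeq libraries, per the labels' protocols. Per the submitters' processing notes, the tools were STAR, RSEM, edgeR, limma, cutadapt and Trim Galore, with GRCm38. Their versions and roles, the annotation and the strand setting were not given in the sources used here. The authors deposited raw counts per gene, which are whole numbers, and a second table whose 159498 values equal those counts. Symbols, coordinates and exon lengths came from GENCODE M21, which named 53360 of 53465 IDs.

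Genes were filtered with filterByExpr (14088 kept), scaled by TMM and fitted over all 9 libraries, 1 mean per group, in edgeR 4.0.16 (glmQLFTest, two-sided, R 4.3.3). Adjusted p means Benjamini-Hochberg over those 14088 genes, called under 0.05. SE is the log2 change over the root of F. Pairs of replicates differed beyond counting noise (chi-square per degree of freedom 3.69 to 34.8). The fit was tested on simulated data. Members and lists were chosen with earlier results of these data known. Named were all members, pathway genes that passed in the first 3 lists, the 3 with the smallest p over the 3 groups in the others, and the 3 genes most like each of 3 members. Outside that rule, Irs1, Irs2, H19, Airn, Igfbp1, Stc1, Htra1, Igf2bp1, M6pr, Dlk1 and Ndn were chosen after their values were seen. Alternatives were other scalings, filters, tools (DESeq2 1.42.0, limma voom 3.58.1), sample sets, a replicate block, single libraries left out, an adjusted p under 0.01 and the longest transcript as length.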

Additional observations from a re-analysis of the deposited data

Results flagged for a closer look

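The change from control differed between the exposures for 5 of the 7 tested members, where 21.3% of all genes tested were called. This is the direct edgeR test of 72 h against 24 h, in which the shared controls cancel. The calls of Igf1 and Igfbp6 were lost when some single libraries were left out (adjusted p from 0.052 to 0.0674 and from 0.0595 to 0.0656). The log2 change at 72 h minus that at 24 h was -1.15 for Igf1, -1.52 for Igfbp3, 0.64 for Igfbp4, 0.47 for Igfbp6 and -1.56 for Igfbp7. For Igfbp3, Igfbp4 and Igf1 the 72 h libraries overlapped the controls, whereas for Igfbp6 and Igfbp7 it was the 24 h libraries that did.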

How the results depend on the processing

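The calls of Igfbp3 and Igfbp4 at 24 h and of Igfbp6 and Igfbp7 at 72 h kept their direction and their side of the threshold in all 20 alternatives. Their log2 changes ranged from 1.5 to 1.68, from -0.82 to -0.64, from 0.54 to 0.78 and from -1.46 to -1.29. Members called higher and lower ranged with 1 library left out from 1 to 5 and 1 to 1 at 24 h, from 1 to 2 and 1 to 2 at 72 h, and from 1 to 2 and 2 to 4 between the exposures. The corresponding counts of all genes ranged from 1165 to 2297 and 1186 to 2122, from 425 to 1100 and 311 to 865, and from 951 to 2265 and 1002 to 2464; the highest of each came without control replicate 2. At an adjusted p under 0.01, members called higher numbered 1 in each comparison, and all genes 999 higher and 905 lower at 24 h, 362 and 265 at 72 h, and 747 and 843 between the exposures. With only the 6 libraries compared, all genes numbered 433 and 341 at 72 h and 2251 and 2409 between the exposures, and 1 member was higher at 72 h. That number was also 1 with library totals only, where all genes were 543 higher and 716 lower against 666 and 540, and with the replicate block. Same-numbered libraries did not deviate together (correlations from -0.09 to 0.00, against -0.08 to 0.09 for differently numbered ones). With 3 libraries per group, this cannot settle whether a number marks a shared culture. Apart from Igf1r at 72 h, the block changed no call of a member.

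Uncalled values near 0 changed sign. Over the 20 alternatives, the 72 h changes ranged from -0.38 to 0.12 for Igf1 and from -0.22 to 0.10 for Igf2r. They ranged from -0.06 to 0.16 for Igfbp3 and from -0.17 to 0.01 for Igfbp4. The difference between the exposures ranged from -0.05 to 0.01 for Igf1r. Igf1 was above 0 when control 1 (0.12) or DPI 72 h replicate 3 (0.05) was left out. Igf2r was above 0 with limma voom (0.01) and when control 1 (0.10), control 3 (0.07) or DPI 72 h replicate 3 (0.00) was left out. Igfbp3 turned when DPI 72 h replicate 2 was left out, Igfbp4 when control 2 was, and Igf1r when DPI 72 h replicate 1 was. The cause was not tested. With the longest transcript as length, the binding protein sum was 74.6 at 24 h and 74.3 at 72 h. Depth limits Igf2, Igfbp2, Igfbp5, Stc2 and Pappa2.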

Other observations

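Of 5 tested genes for the growth hormone receptor and its STAT5 branch, which drives Igf1 in liver, Jak2 fell at 24 h (-0.32, edgeR adjusted p = 0.0478), a call lost in 12 of 20 alternatives, with adjusted p up to 0.141. A count of 1 in 5 is near the 24.7% of all genes called at 24 h. Ghr and Stat5b had log2 changes of 0.17 and -0.21 at 24 h and did not pass. Among 6 tested imprinted growth genes, none passed at 24 h by edgeR (0 of 6, also 0 at an unadjusted p under 0.05 and 0 by DESeq2 and limma voom). Without control replicate 2, 1 was higher, and that omission gave 2297 higher over all genes, against 1750. Over all genes, 24.7% were called at 24 h, and at 72 h 8.56% were called, 3.83% of all genes being lower. At 72 h Sgce and Plagl1 fell by 0.88 and 0.40 on the log2 scale (adjusted p = 0.0102 and 0.0122), the latter lost without DPI 72 h replicate 2 or 3 (adjusted p = 0.0657 and 0.0636), and Cdkn1c had -0.31 and did not pass. Dlk1 had 0 counts in all libraries, as did Ndn.

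In mannose 6-phosphate sorting, the other duty of Igf2r, M6pr, the cation-dependent receptor gene, had 181, 186 and 184 CPM in the control, 24 h and 72 h groups. Nagpa, which uncovers the sorting tag, rose by 0.62 at 24 h (adjusted p = 0.00634), and Gnptg, a subunit of the enzyme that adds it, fell by 0.61 at 72 h on the log2 scale (adjusted p = 0.00534). Gnptab, the catalytic precursor of that enzyme, had log2 changes of 0.13 and 0.07 at 24 h and 72 h and did not pass. Of the binding proteins of Igf2 mRNA, Igf2bp1 and Igf2bp2 had 72.1 and 85.9 CPM in controls although Igf2 itself was at 0 to 3 counts. Igf2bp2 was lower at 72 h than at 24 h by a log2 difference of -0.29 (adjusted p = 0.0354), and this was lost without any single DPI library (adjusted p from 0.0592 to 0.139).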
